A study of Mus musculus with 29 samples.

Results

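Ubiquitin ligases attach the small protein ubiquitin to other proteins, and deubiquitinases take it off again. The genes described here are those of mouse whose symbols place them in the F-box (Fbxl, Fbxo and Fbxw), Ube2, Ube3, cullin (Cul), Klhl, Rnf, Trim or Usp families, followed by a number for most families, with pseudogenes and Y-linked genes left out. GENCODE M21 holds 369 protein-coding genes with such symbols. Of these, 232 were among the 9872 genes measured in the amygdala and 142 among the 6080 genes measured in the medial prefrontal cortex. Both regions held 132 of them, and 242 of 10678 genes were measured in at least one region. All were protein coding and no symbol was shared by several gene models. The amygdala held 39 F-box, 29 Ube2, 3 Ube3, 8 cullin, 22 Klhl, 59 Rnf, 29 Trim and 43 Usp genes. The prefrontal cortex held 29, 22, 1, 3, 6, 34, 17 and 30 of the same families. The 10 genes measured in the prefrontal cortex only were Fbxo31, Fbxw4, Fbxw9, Rnf123, Rnf138, Rnf144a, Trim12a, Trim30a, Trim67 and Usp51. Trim12a and Trim30a have near-identical neighbouring copies among which reads may be divided, so their values are uncertain.

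Ubiquitin is first bound by an activating enzyme (E1), then passed to a conjugating enzyme (E2, the Ube2 family) and placed on its target with the help of a ligase (E3). Ligases of the HECT type (Ube3) take over the ubiquitin themselves, those with a RING finger (most Rnf and Trim proteins) bring the E2 to the target, and cullins form scaffolds on which F-box or Klhl proteins act as exchangeable receptors for targets. Most Usp proteins are proteases that remove ubiquitin. In neurons this system is known for regulating the turnover of synaptic receptors and scaffolds, axon growth and the quality control of mitochondria.

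All mice were B6.Cg-Tg(Thy1-YFP)HJrs/J, a line in which a Thy1 promoter drives a yellow fluorescent protein in part of the projection neurons. The labels name the sorted cells pyramidal neurons and divide the mice into Res-T and Sus-T, each without trauma (woT) or with trauma (wT). Neither the meaning of these group names nor the age and sex of the mice is given in the sources used here. Amygdala libraries numbered 3 in Res-T without trauma, 2 in Sus-T without trauma, 4 in Res-T with trauma and 4 in Sus-T with trauma, and prefrontal libraries 4, 2, 3 and 4 in the same order. The submitters' tables held no column for 3 of the 29 described samples, namely replicate 2 of Sus-T without trauma (both regions) and replicate 2 of prefrontal Res-T with trauma. The labels do not say that each library came from its own animal, and 13 amygdala libraries stand against 9 mice in the design text. The p-values therefore measure the spread between libraries, part of which may be technical.

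Values are the authors' normalized signal in arbitrary units, with amygdala library totals between 3267967 and 4021272 and prefrontal totals between 2095138 and 2444486. Read depth was not estimated here. After subtracting 1 and taking logarithms, the gene-centred amygdala values had 1 dimension too few for their number of libraries and the prefrontal values 2, so the spread between libraries may be understated. The amygdala Res-T libraries without trauma had weights of at most 0.0002 in the missing dimension, against 0.0074 to 0.2731 in the other amygdala libraries, and this group stands apart in that respect. The amygdala Res-T libraries without trauma enter 3 of the comparisons below, namely phenotype without trauma, trauma in Res-T, and the difference between the trauma effects. Among the prefrontal libraries Res-T with trauma replicate 1 had the highest weight, 0.7312. That library enters the prefrontal phenotype comparison with trauma, where results without it are given, as well as trauma in Res-T and the difference between the trauma effects there. Prefrontal Res-T without trauma replicate 4 also stood apart, with oligodendrocyte markers at 9.64% of its total where the group's lowest library had 3.63%. Of 16 pyramidal neuron markers only Camk2a, Camk2n1 and Nrgn were measured in the amygdala and none in the prefrontal cortex, and the others were not analysed here. Their summed share in amygdala Res-T without trauma was 0.00494% to 0.00768% of the library, against 0.105% to 0.129% in Sus-T without trauma. Markers of oligodendrocytes (23 of 24 measured) made up 7.05% to 8.19% and 2.25% to 3.31% of the same libraries, and none of those measured was at 0. The sorted material thus carried high levels of oligodendrocyte markers in every group, with the label of the sorted cells resting on few neuronal markers.

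Members that moved together are shown first by the sequence upstream of their start sites. The 4 stretches are the 250 bases before the start on the gene's own strand, from RefSeq on GRCm38.p6, for Usp46 and Rnf157, which were higher in Sus-T, and for Trim59 and Ube2d1, which were lower. Capitals mark GC boxes (GGGCGG or its reverse complement, bound by Sp1) and CCAAT boxes (CCAAT or its reverse complement, bound by NF-Y).
Usp46 (chr5:74068412-74068661, minus strand): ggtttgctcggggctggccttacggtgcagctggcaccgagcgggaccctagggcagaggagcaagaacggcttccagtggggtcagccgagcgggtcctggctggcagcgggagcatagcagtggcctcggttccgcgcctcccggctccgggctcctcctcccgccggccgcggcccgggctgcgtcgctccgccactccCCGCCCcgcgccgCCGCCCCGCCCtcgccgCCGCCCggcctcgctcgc
Rnf157 (chr11:116413033-116413282, minus strand): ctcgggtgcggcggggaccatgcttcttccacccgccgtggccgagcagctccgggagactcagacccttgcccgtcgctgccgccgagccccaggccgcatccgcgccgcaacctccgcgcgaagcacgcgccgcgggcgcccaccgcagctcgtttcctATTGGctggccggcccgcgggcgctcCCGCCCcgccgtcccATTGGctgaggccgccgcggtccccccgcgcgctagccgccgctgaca
Trim59 (chr3:69044743-69044992, minus strand): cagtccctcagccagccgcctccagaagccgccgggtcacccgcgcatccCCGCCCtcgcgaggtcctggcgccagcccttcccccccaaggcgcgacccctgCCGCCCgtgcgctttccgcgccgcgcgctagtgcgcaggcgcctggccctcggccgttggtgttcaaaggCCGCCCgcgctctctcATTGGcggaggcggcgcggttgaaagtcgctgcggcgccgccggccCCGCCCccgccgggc
Ube2d1 (chr10:71285263-71285512, minus strand): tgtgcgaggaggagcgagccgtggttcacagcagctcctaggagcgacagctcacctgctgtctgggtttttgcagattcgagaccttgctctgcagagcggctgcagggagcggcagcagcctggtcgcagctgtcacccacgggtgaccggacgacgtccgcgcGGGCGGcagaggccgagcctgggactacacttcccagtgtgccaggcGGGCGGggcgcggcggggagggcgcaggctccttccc

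GC boxes numbered 4 in the Usp46 stretch, with a pair overlapping by a base, 1 in that of Rnf157, 4 in that of Trim59 and 2 in that of Ube2d1. CCAAT boxes numbered 2 in Rnf157 and 1 in Trim59. These stretches were chosen after their values were seen, among the 122 of 242 genes with a RefSeq start within 50 bases of the GENCODE start. A GC box lay in 80 of the 122 stretches (65.6%) and in 32.7% of all 32851 RefSeq stretches of the same length, and a CCAAT box lay in 38 (31.1%) against 33.8%. Searched on both strands, the cAMP response element TGACGTCA lay in 4 of the 122 against 1.55% of all stretches, and the TATA box TATAAA in 7 against 12.4%. The E-box CACGTG lay in 8 against 6.02% and the ETS motif CCGGAAG in 24 against 6.91%. The median GC content was 59.8% with 16 CpG dinucleotides, against 52.4% and 6 over all stretches. The 32851 stretches had none of the limits set on the 122, such as measured protein-coding genes and starts near those of GENCODE. The contrasts with all stretches therefore cannot be read as traits of these families. Genes called higher and genes called lower in Sus-T amygdala without trauma, 13 of each with a stretch, both held a GC box in 8, while a CCAAT box lay in 5 and 8 of them. A match is a description of the letters and was not tested for binding.

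The first comparison asks how Sus-T and Res-T differ in the amygdala without trauma. Of the 232 genes, 22 rose and 32 fell in Sus-T, and 38 of the 54 changed at least 2-fold. The share called was 23.3%, against a background of 27.4% of all genes measured, so these families were not called more often than other genes. All p-values of genes are from limma on log2(value + 1), adjusted (Benjamini-Hochberg) across every gene of the region and called under 0.05, and folds refer to that scale. The median log2 change was 0.04 over the 232 genes and -0.03 over all genes, and the plot by subfamily shows both directions in each of the larger families. Libraries of the groups did not overlap in 62.1% of the 232 genes and in 58.9% of all genes. In the same comparison 21 of 23 oligodendrocyte markers fell, all 3 measured pyramidal markers rose, and 7 of 15 astrocyte and 4 of 4 microglial markers rose. Of 7 oligodendrocyte precursor markers 4 fell and 1 rose. Of 3 GABAergic interneuron markers 1 fell, and of 7 endothelial and mural markers 1 rose and 1 fell. With the mean log2 value of the oligodendrocyte markers as a covariate limma called 0 of the 54 genes, while 34 of the 232 had an unadjusted p under 0.05, 49 of the 54 kept their sign and 5 took the other. The oligodendrocyte marker shares of the groups do not overlap. The phenotype and the oligodendrocyte share therefore cannot be told apart here, nor can fewer cells of a type and less RNA per cell. Leaving out Sus-T replicate 3, where the remaining library is assumed to vary like the other groups, gave 35 calls, 14 up and 21 down. Of the 39 called genes that the naming rule chose, 25 stayed called whichever single library was left out.

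**Figure D1:**
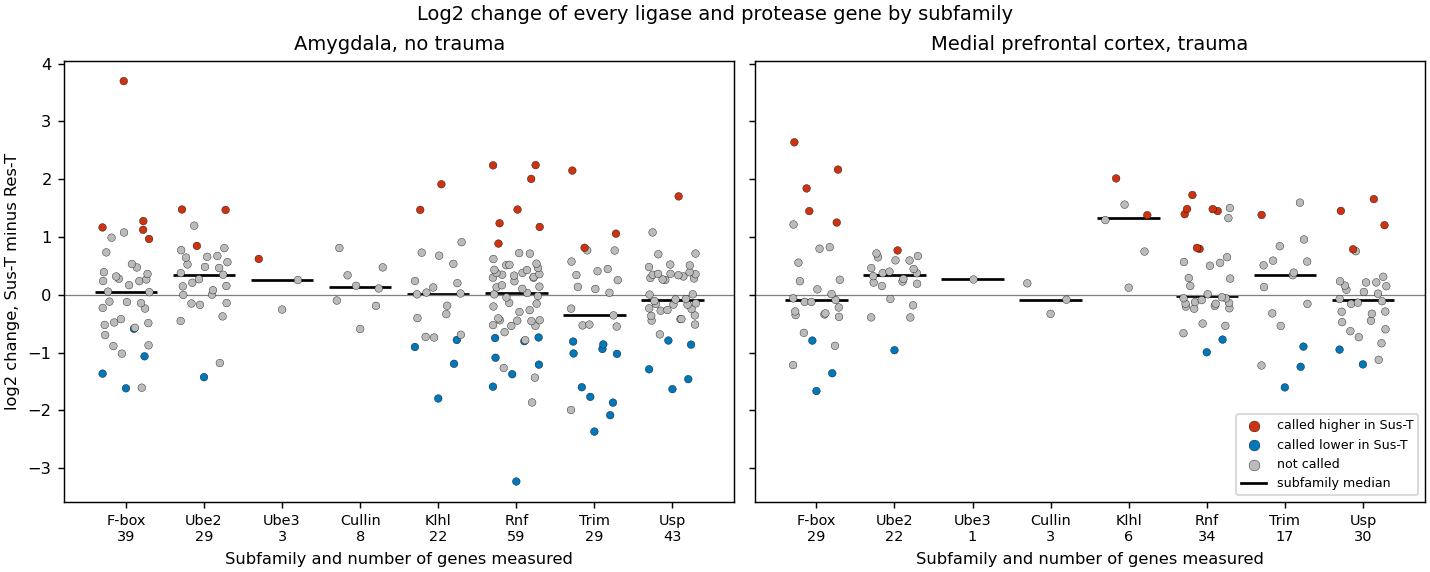
Log2 change of every measured gene, Sus-T minus Res-T, in the amygdala without trauma (left) and the medial prefrontal cortex with trauma (right), by subfamily with the number measured; red and blue points passed the test, grey points did not, and bars are subfamily medians. Called genes lie on both sides of 0, from -3.23 (Rnf43) to 3.70 (Fbxl16) in the amygdala.

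Of 29 conjugating enzymes of the Ube2 family 3 rose and 1 fell in the amygdala without trauma, with a median log2 change of 0.35 against -0.03 over all genes. Ube2m, the E2 for the ubiquitin-like protein NEDD8 that switches cullin ligases on, stood at 72.6, 121.6 and 108.0 in Res-T and at 251.0 and 299.5 in Sus-T. The groups did not overlap, and the rise was 2.77-fold (log2 1.47 ± 0.28 SE, adjusted p = 0.000887). Ube2v1, an E2 variant without a catalytic cysteine that works with Ube2n on lysine-63 chains, rose 2.78-fold from 114.9 ± 19.6 (SD, n = 3) to 318.4 ± 14.4 (n = 2), and Ube2q1 rose 1.80-fold. Ube2d1, a versatile partner of many RING ligases, stood at 756.9, 917.5 and 928.7 in Res-T and at 309.0 and 333.7 in Sus-T. It was thus low in both Sus-T libraries, a 2.69-fold fall (log2 -1.43 ± 0.22, adjusted p = 0.000156). Ube2b, a partner of the DNA repair ligase Rad18, had the highest value per kilobase of its family and did not pass the test, with 384.1 ± 8.44 and 435.1 ± 118.7 (adjusted p = 0.700).

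Among the HECT ligases Ube3b rose 1.54-fold from 305.5 ± 56.2 to 465.7 ± 51.3 (adjusted p = 0.0465). Ube3a, whose loss in neurons causes Angelman syndrome, had 1079, 1494 and 1517 in Res-T and 1220 and 1043 in Sus-T, overlapping values with a log2 difference of -0.26 ± 0.26 (adjusted p = 0.498). None of the 8 cullins passed limma's test (2 had an unadjusted p under 0.05, as had 3825 of all 9872 genes). The log2 differences of the cullins ran from -0.59 to 0.81. Cul3, the scaffold for Klhl receptors, was at 577.1 ± 81.9 and 638.9 ± 39.0 (adjusted p = 0.731).

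F-box proteins are the receptors of SCF ligases, and 5 of 39 rose while 4 fell. Fbxl16, an F-box protein that is abundant in brain, changed most, with 59.5, 71.9 and 47.3 in Res-T and 717.7 and 833.6 in Sus-T. Its lowest Sus-T library lay far above the highest Res-T library, a 13.0-fold rise (log2 3.70 ± 0.40, adjusted p = 1.5e-05). Fbxw7, the receptor for cyclin E, Myc and Notch, rose 2.42-fold from 103.7 ± 3.71 to 252.2 ± 8.74 (adjusted p = 0.0015). Fbxo2, which binds glycoproteins and is enriched in neurons, rose 2.24-fold from 49.5 ± 11.1 to 112.6 ± 32.9 (adjusted p = 0.0161). Fbxo7, a parkinsonism gene linked to the clearance of mitochondria, moved the other way, from 1153, 1043 and 928 in Res-T to 302.9 and 375.4 in Sus-T. This was a 3.07-fold fall without overlap (log2 -1.62 ± 0.22, adjusted p = 6.25e-05). Fbxl5, the iron sensor that removes the iron regulatory protein IRP2, fell 2.58-fold from 1644 ± 18.2 to 638.2 ± 39.1, and Fbxo32, known as atrogin-1 in wasting muscle, fell 2.09-fold. Fbxl20, a ligase for the presynaptic protein RIM1, did not pass the test, at 348.7 ± 34.7 and 249.6 ± 50.2 (adjusted p = 0.150).

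Of 22 Klhl genes, receptors for Cul3, 2 rose and 4 fell. Klhl13, which acts in cell division, rose 2.77-fold from 62.5 ± 2.24 to 176.3 ± 33.4, and Klhl23 rose 3.76-fold from 30.6 ± 5.57 to 118.7 ± 30.9 (adjusted p = 0.0283). Klhl4 fell from 671.6, 871.5 and 832.6 to 187.8 and 272.1, with no overlap (log2 -1.79 ± 0.30, adjusted p = 0.000286). Klhl20 fell 2.29-fold, and Klhl2, an actin-binding receptor for the kinases that regulate salt transport, fell 1.72-fold from 2196 ± 185.6 to 1273 ± 5.20. Klhl24 was at 844.7 ± 105.1 and 739.8 ± 100.7 and did not pass (adjusted p = 0.664).

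RING ligases of the Rnf series moved in both directions, 7 of 59 up and 8 down, with a median of 0.03. Rnf157, a ligase known from brain neurons, stood at 87.0, 123.9 and 85.8 in Res-T and at 468.4 and 459.5 in Sus-T. Both Sus-T libraries were high, and the rise was 4.72-fold (log2 2.24 ± 0.29, adjusted p = 4.77e-05). Rnf217 rose 4.74-fold from 55.3 ± 11.6 to 261.7 ± 9.09 (adjusted p = 0.00013), Rnf169, which acts at DNA breaks, rose 2.36-fold, and Rnf10 rose 1.85-fold. Rnf43 turns over Frizzled receptors of the Wnt pathway and fell from 111.4, 109.7 and 141.2 to 4.52 and 29.1, a 9.39-fold fall (adjusted p = 0.000906). Its Sus-T libraries differed several-fold from each other at a low level, and with the oligodendrocyte covariate its log2 change was 0.25 ± 1.51. Rnf13, a ligase of endosomal and lysosomal membranes, fell 2.59-fold from 3281 ± 433.4 to 1257 ± 42.5 (adjusted p = 0.000156), and Rnf122 fell 3.01-fold. Rnf130, with the highest value per kilobase of all the families, had 745.6 ± 105.5 and 545.7 ± 5.82 (adjusted p = 0.0767), and Rnf41 had 109.6 ± 37.7 and 156.4 ± 44.9 (adjusted p = 0.325).

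Of 29 Trim genes 10 fell and 3 rose, which is 34.5% and 10.3% against 15% and 12.4% of all genes, with a median log2 change of -0.36. Trim59, a RING ligase anchored in the endoplasmic reticulum membrane, had 1489, 1382 and 2080 in Res-T and 339.1 and 431.2 in Sus-T. The lowest Res-T library was above both Sus-T libraries, and the fall was 4.24-fold (log2 -2.08 ± 0.24, adjusted p = 2.46e-05). Trim24, a reader of histone marks, fell 1.81-fold, and Trim35 fell 2.02-fold from 950.7 ± 142.4 to 466.8 ± 32.0. Trim2, the ligase for neurofilament light chain, fell 1.75-fold from 3186 ± 347.9 to 1838 ± 447.1 (adjusted p = 0.0109), and its relative Trim3, which acts on postsynaptic scaffolds, fell 1.92-fold from 424.1 ± 85.2 to 218.1 ± 8.47. Trim37, a regulator of centrosomes and peroxisomes, rose instead, from 149.5, 125.1 and 229.2 to 802.6 and 653.1. This was a 4.43-fold rise without overlap (log2 2.15 ± 0.32, adjusted p = 0.000131). Trim32, a muscle and neuron ligase, rose 2.08-fold, and Trim44, which lacks the RING finger, rose 1.76-fold from 666.4 ± 91.3 to 1165 ± 82.8. Trim9, a ligase of axon branching, was at 778.9 ± 268.7 and 1331 ± 571.1 and did not pass (adjusted p = 0.156).

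Of 43 genes with a Usp symbol, most of them deubiquitinases, 1 rose and 5 fell, 14% in all against 27.4% of all genes, a difference that was not tested. Usp46 removes ubiquitin from AMPA-type glutamate receptors and was at 84.8, 190.5 and 161.9 in Res-T and at 477.4 and 426.1 in Sus-T. The groups did not overlap, with a 3.25-fold rise (log2 1.70 ± 0.33, adjusted p = 0.00108). Usp54, whose value per kilobase was the highest of the family, fell 3.10-fold from 3688, 4199 and 2897 to 986.5 and 1329 (adjusted p = 3.25e-05). Usp30 sits on mitochondria, where it opposes parkin, and it fell 2.75-fold from 629.9 ± 92.2 to 227.4 ± 26.7 (adjusted p = 0.000156). Usp48, a histone H2A protease, fell 2.44-fold from 1028 ± 161.0 to 420.3 ± 78.4. Usp14 of the proteasome (209.7 ± 77.6 and 256.1 ± 22.7) and Usp22 of the SAGA complex (1101 ± 101.9 and 934.5 ± 74.0) did not pass the test (adjusted p = 0.349 and 0.413).

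**Figure D2:**
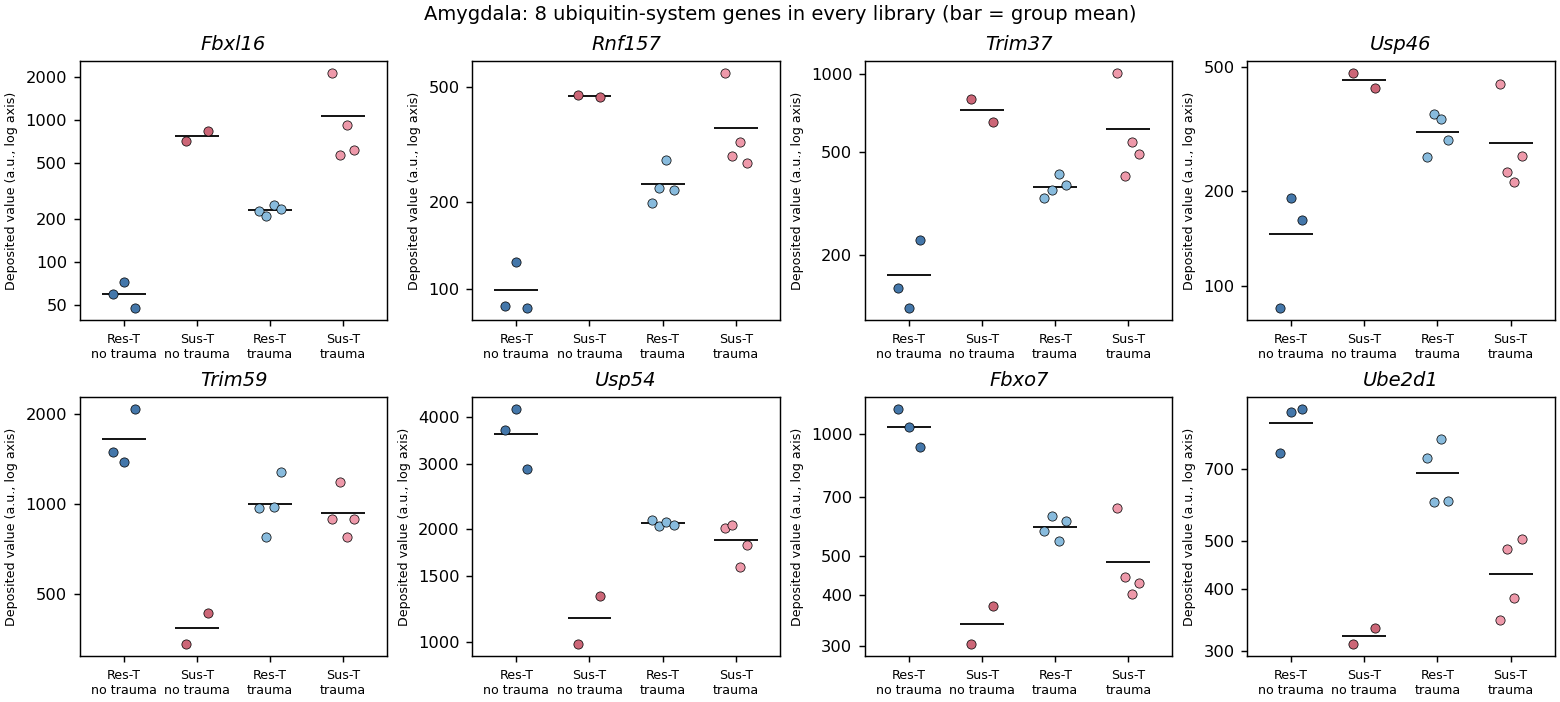
Deposited value (arbitrary units, log axis) of 8 genes in each of the 13 amygdala libraries by group, with bars at group means. Fbxl16, Rnf157, Trim37 and Usp46 had their lowest mean in Res-T without trauma, where Trim59, Usp54, Fbxo7 and Ube2d1 had their highest, and groups with trauma lay mostly between the groups without it.

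Other genes of the pathway outside these families were counted on lists written for the purpose, and those named are among the smallest p-values of their list. Of 16 genes for ubiquitin, related modifiers and E1 enzymes 4 rose and none fell, among them the ubiquitin-like modifier Sumo2 (log2 0.97) and the SUMO E1 subunit Sae1 (1.29). Of 25 further HECT and RING-between-RING ligases 2 rose and 2 fell, led by Itch with a log2 change of -1.38. Of 47 further RING and U-box ligases 4 rose and 12 fell, with a median of -0.35 and the smallest p-value for March8 (-1.27). Partners of cullin ligases rose in 8 and fell in 4 of 64 cases, and deubiquitinases outside the Usp family rose in 7 and fell in 6 of 31. Over all genes 12.4% rose and 15% fell, with a median of -0.03, and differences of the lists from these shares were not tested.

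In the prefrontal cortex the phenotypes were compared in the same way with trauma. Of 142 genes 20 rose and 11 fell in Sus-T, 21.8% against a background of 23% of all genes (14% up and 8.93% down), and 21 changed at least 2-fold. The median log2 change was 0.14 over these genes and 0.15 over all genes. Quantile normalization moved the median of all genes to -0.01 and gave 14 rises and 11 falls, and setting library medians equal moved it to 0.01 and gave 13 and 13, so the excess of rises depends on the scaling. Oligodendrocyte markers made up 5.99% to 8.27% of the Res-T libraries and 2.96% to 5.01% of the Sus-T libraries, and 11 of 15 measured markers fell. Of 3 measured oligodendrocyte precursor markers 2 rose, with a median log2 change of 1.72. With the mean of the oligodendrocyte markers as a covariate limma called 0 of the 31 genes. In that fit 21 of the 142 had an unadjusted p under 0.05, and 30 of the 31 kept their sign. The groups do not overlap in the oligodendrocyte share, so it and the phenotype cannot be told apart here either. Calls numbered 14 without Res-T replicate 1, 14 without Res-T replicate 4 and 19 without Sus-T replicate 3, and 12 of the 24 called genes chosen by the naming rule stayed called whichever library was left out. Res-T and Sus-T libraries were fully apart in 33.8% of the 142 genes and in 40.7% of all genes.

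F-box genes rose in 5 and fell in 3 of 29 cases in the prefrontal cortex. Fbxl18, a receptor that targets other F-box proteins, was at 40.7, 49.96 and 40.5 in Res-T and at 269.3, 270.7, 244.2 and 326.1 in Sus-T. All Sus-T libraries were high, and the rise was 6.23-fold (log2 2.64 ± 0.42, adjusted p = 0.00165). Fbxo31, which acts in cell cycle arrest and was measured in this region only, rose 3.58-fold from 98.4 ± 25.1 (n = 3) to 354.3 ± 81.7 (n = 4), and Fbxo9 rose 2.73-fold. Fbxo7 fell from 589.0, 698.6 and 716.8 to 195.4, 249.3, 169.0 and 232.1, without overlap. This 3.17-fold fall (adjusted p = 0.0121) was joined by Fbxl12 (2.56-fold) and Fbxl5 (1.73-fold). Of the 6 Klhl genes Klhl22, which acts in mitosis and nutrient sensing, rose 4.04-fold from 19.2 ± 5.02 to 85.8 ± 34.3, and Klhl11 rose 2.60-fold, while none fell. The Klhl median was 1.33, the highest of the families.

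Rnf genes rose in 7 and fell in 2 of 34 cases with trauma. Rnf114, a ligase with zinc fingers, was at 105.9, 46.7 and 102.3 in Res-T and at 168.6, 213.9, 198.9 and 322.5 in Sus-T. The lowest Sus-T library was above the highest Res-T library, and the rise was 2.73-fold (log2 1.45 ± 0.32, adjusted p = 0.00624). Rnf11, a modifier of HECT ligases, rose 2.63-fold from 224.0 ± 70.1 to 583.9 ± 130.5, and Rnf180 rose 2.79-fold from 33.7 ± 3.14 to 96.9 ± 17.5. Rnf20, which ubiquitinates histone H2B, fell from 823.7, 900.7 and 819.8 to 338.0, 501.4, 384.6 and 498.8. Both groups kept apart, a 1.99-fold fall (log2 -0.99 ± 0.20, adjusted p = 0.00403). Rnf13 fell 1.71-fold (adjusted p = 0.046), and with the oligodendrocyte covariate its log2 change turned to 0.10 ± 0.23. Rnf41 was at 93.1 ± 17.4 and 99.4 ± 43.6, with no call (adjusted p = 0.988).

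Trim genes gave 1 rise and 3 falls of 17 in the prefrontal cortex. Trim44 rose 2.60-fold from 437.8, 510.1 and 419.9 to 1058, 1177, 1399 and 1130 (adjusted p = 0.00269), with every Sus-T library above every Res-T library. Trim59 fell 2.37-fold from 1043 ± 168.8 to 451.5 ± 128.6, Trim24 fell 1.86-fold, and Trim36, a ligase of microtubule-rich structures, fell 3.04-fold from 342.7 ± 30.8 to 118.0 ± 44.1. Trim2 (2098 ± 341.3 and 1688 ± 312.8) and Trim3 (226.5 ± 33.7 and 202.0 ± 17.8) did not pass (adjusted p = 0.241 and 0.643).

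Usp genes rose in 4 and fell in 2 of 30 cases. Usp46 was at 103.1, 126.9 and 78.3 in Res-T and at 331.3, 230.2, 276.3 and 281.0 in Sus-T. It did not overlap between the groups and rose 2.73-fold (log2 1.45 ± 0.26, adjusted p = 0.00236). Usp21, a histone H2A protease, rose 3.15-fold from 24.7 ± 0.796 to 87.3 ± 38.8, and Usp14 rose 1.73-fold from 146.7 ± 7.33 to 257.3 ± 52.9 (adjusted p = 0.0298). Usp54 fell 2.30-fold from 2082, 2441 and 2314 to 1043, 1053, 690.2 and 1250 (adjusted p = 0.00718), and Usp48 fell 1.93-fold. Usp22 was at 870.7 ± 101.2 and 927.1 ± 123.7 without a call (adjusted p = 0.745). Of 22 Ube2 genes Ube2k, which builds lysine-48 chains, rose 1.70-fold, and Ube2d1 fell 1.94-fold from 557.6 ± 65.8 to 286.9 ± 37.9 (adjusted p = 0.011). None of the 3 cullins passed (0 at an unadjusted p under 0.05), nor did Ube3c, the HECT ligase measured here (324.3 ± 27.2 and 390.2 ± 28.1, adjusted p = 0.409).

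**Figure D3:**
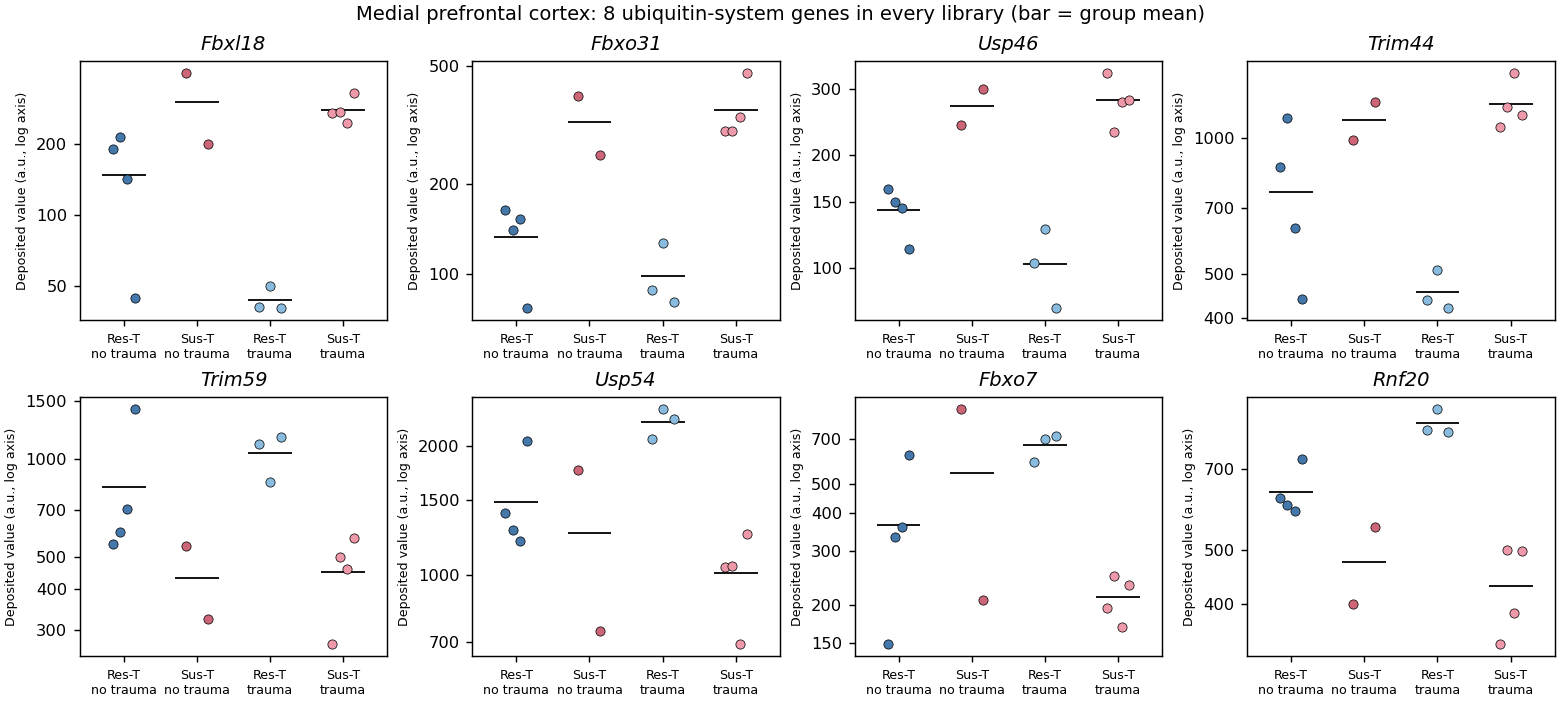
Deposited value (arbitrary units, log axis) of 8 genes in each of the 13 medial prefrontal libraries by group, with bars at group means. With trauma the Res-T and Sus-T libraries do not overlap in any of the 8 genes, and one Res-T library without trauma (replicate 4) lies near the Res-T libraries with trauma for several of them.

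On the pathway lists 5 of 10 genes for ubiquitin-like modifiers and E1 enzymes rose in Sus-T prefrontal cortex with trauma and none fell, with the smallest p-values for Sumo3 (log2 2.38) and Sumo2 (1.50). Of 41 partners of cullin ligases 10 rose and 1 fell, with a median of 0.59, led by the elongin subunit Eloc (2.05), the receptor Dcaf7 (1.58) and the SCF adaptor Skp1a (1.30). Further HECT and RING-between-RING ligases rose in 2 and fell in 1 of 21 cases, further RING and U-box ligases in 8 and 6 of 35, and other deubiquitinases in 4 and 1 of 22. Over all genes 14% rose and 8.93% fell, with a median of 0.15. Differences of the lists from these shares were not tested. The lists were not counted under the other scalings, on which the excess of rises depends.

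The amygdala comparison without trauma and the prefrontal comparison with trauma use different libraries. Of 132 genes measured in both regions, 23 were called in the first and 29 in the second, and 14 were called in both, which is 60.9% and 48.3% of these calls. Over all 5274 genes measured in both regions the shared calls were 695, or 51% and 55.1%. All 14 had the same direction, as had all 695. Usp46, Rnf180, Rnf11 and Trim44 were higher in Sus-T in both comparisons, and Trim59, Usp54, Fbxo7, Trim36, Ube2d1, Rnf13, Fbxl5, Usp48, Trim24 and Rnf20 were lower. In the other phenotype comparison of each region none of the 14 was called. The sign turned for Usp46 (log2 -0.17) and Trim36 (0.09) in the amygdala with trauma. It also turned for Fbxo7 (0.40 ± 0.49) and Trim36 (0.74) in the prefrontal cortex without trauma, and the rest kept theirs. Fbxo7 stood there at 880.1 and 207.1 in Sus-T and at 148.3, 333.7, 359.5 and 618.8 in Res-T. With single libraries left out prefrontal Rnf13 lost its call in 6 of 7 fits, Fbxl5 and Usp48 in 5 of 7, and the others in fewer or none. In the amygdala Rnf20, Trim44, Rnf180, Rnf11, Trim24 and Trim36 did not keep their calls in every such fit, while the others did. Some of these amygdala fits left a single Sus-T library. Fbxo7 (log2 -1.62 and -1.67), Trim36 (-1.60 and -1.60) and Rnf180 (1.47 and 1.48) changed by nearly the same amount in the regions. Trim59 differed more (-2.08 ± 0.24 and -1.25 ± 0.32), a difference that was not tested. In both comparisons the oligodendrocyte share was lower in Sus-T, and its part in the shared calls was not tested beyond the covariate fits above.

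**Figure D4:**
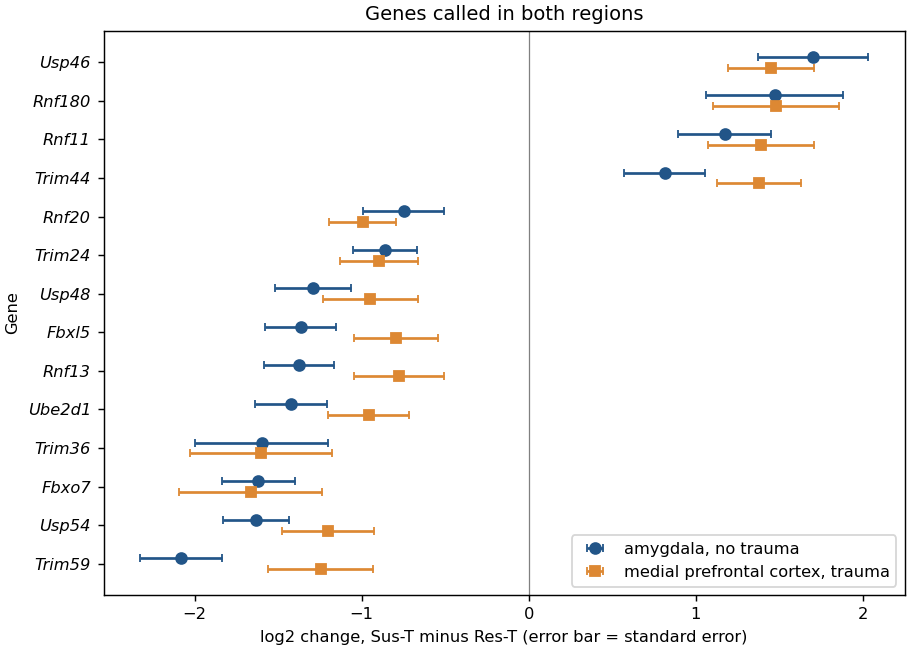
Log2 change, Sus-T minus Res-T, with its standard error for the 14 genes called both in the amygdala without trauma (circles) and in the medial prefrontal cortex with trauma (squares). The 4 upper genes lie right of 0 and the 10 lower genes left of 0 in both regions.

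**Figure D5:**
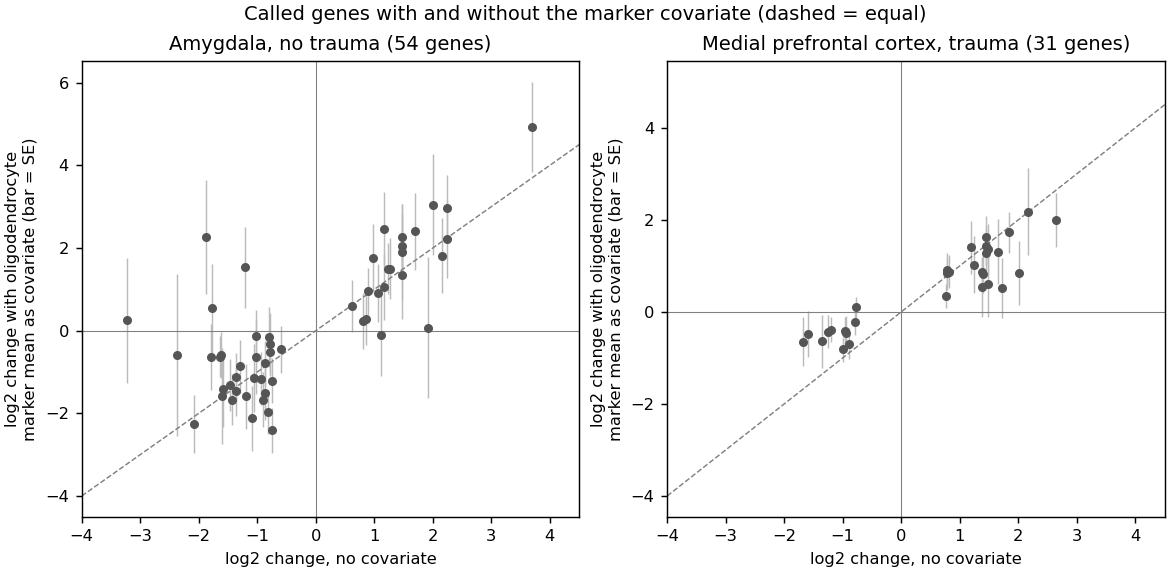
Log2 change of the 54 genes called in the amygdala without trauma and of the 31 called in the prefrontal cortex with trauma, without (horizontal) and with (vertical, bars are standard errors) the mean of the oligodendrocyte markers as a covariate; the dashed line marks equal values. 49 of 54 and 30 of 31 points keep their sign, and the standard errors with the covariate reach 1.95 for Trim6 in the amygdala.

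The amygdala phenotypes with trauma were compared over 4 libraries each. No gene of the 9872 passed limma's test (0% called). An unadjusted p under 0.05 was found for 29 of the 232 family genes and for 1142 of all genes. Fbxl16 came closest, at 228.6, 210.1, 253.3 and 236.1 in Res-T and at 2152, 571.7, 915.7 and 610.9 in Sus-T. Its groups did not overlap, with a log2 difference of 1.97 ± 0.31 (adjusted p = 0.0534) that passed under 7 other settings, among them quantile normalization (0.0301), and without Sus-T replicate 1 (1.56, adjusted p = 0.0108). Ube2d1 had a log2 difference of -0.69 ± 0.17 (adjusted p = 0.121) and Usp30 one of -0.62 ± 0.17 (adjusted p = 0.165). Trim6, a relative of the antiviral Trim5 group, had 4.81 ± 3.13 and 19.6 ± 11.2 at a low level (adjusted p = 0.211). Shares of the 232 genes whose groups did not overlap (7.33%) and of all genes (5.75%) were similar.

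The effect of trauma within Res-T amygdala was seen in 6 rises and 8 falls among the 232 genes, 6.03% against 6.18% of all genes (3.3% up and 2.88% down). In it 2 of 23 oligodendrocyte and 1 of 7 oligodendrocyte precursor markers fell, and 2 of 3 pyramidal markers and 1 of 15 astrocyte markers rose. The comparison shares the Res-T libraries without trauma with the first, so their directions are not independent. Fbxl16 rose 3.89-fold from 59.6 ± 12.3 to 232.0 ± 17.9 (log2 1.96 ± 0.33, adjusted p = 0.006), and it alone of the 14 stayed called whichever single library was left out. Rnf157 rose 2.33-fold to 230.2 ± 34.8, Trim37 2.25-fold to 368.0 ± 32.7, Usp46 2.22-fold to 310.3 ± 43.7, Ube2m 1.78-fold and Rnf169 1.58-fold. Among the falls Trim6 went from 40.5, 32.5 and 27.6 to 4.07, 1.83, 4.11 and 9.22, a 6.52-fold change of a low signal (adjusted p = 0.0147). Rnf122 fell 1.90-fold, Fbxo7 1.76-fold, Usp54 1.71-fold, Usp16 1.70-fold, Trim59 1.65-fold, Usp48 1.63-fold and Fbxl5 1.55-fold. Quantile normalization gave 4 rises and 3 falls and equal library medians 4 and 10. Calls numbered 8 and 9 without Res-T with trauma replicates 1 and 3, and 1, 3 and 4 without Res-T without trauma replicates 1, 2 and 3. With the oligodendrocyte covariate 10 genes were called, of which Fbxl16, Rnf157, Usp16 and Usp46 were among the 14. On the pathway lists Sumo2 (log2 0.78) was among the genes that rose.

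Trauma within Sus-T amygdala changed 3 of all 9872 genes (0.0304%) and 0 of the 232 by limma. An unadjusted p under 0.05 was found for 23 of the 232 and for 1168 of all genes. Of all genes 0.0203% rose and 0.0101% fell, and libraries with and without trauma did not overlap in 20.4%. Trim59 came closest, with 339.1 and 431.2 without and 892.8, 1183, 772.1 and 892.4 with trauma. The groups did not overlap, and the log2 difference was 1.27 ± 0.23 (adjusted p = 0.0517). It passed under 5 other settings, such as a pseudocount of 8 (0.048), and without Sus-T without trauma replicate 3 (1.44, adjusted p = 0.0144). Usp54 differed by 0.70 ± 0.19 and Rnf43 by 2.16 ± 0.58 (both adjusted p = 0.112), and Klhl4 by 1.02 ± 0.28 (adjusted p = 0.119). Without that same library 3 genes were called, Trim59, Rnf43 and Usp54.

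The difference between the trauma effects of Sus-T and Res-T in the amygdala was called for 18 of 232 genes, 11 up and 7 down, 7.76% against 6.74% of all genes (4.76% up and 1.98% down). In the same contrast 17 of 23 oligodendrocyte markers were called up, with a median log2 difference of 1.68, as were 2 of 7 oligodendrocyte precursor markers, while 1 of 3 pyramidal and 1 of 7 endothelial and mural markers were called down. In Trim59 trauma had a log2 effect of 1.27 in Sus-T and -0.72 in Res-T, a difference of 1.99 ± 0.31 (adjusted p = 0.00314), the only one of the 18 that stayed called whichever single library was left out. Usp54 differed by 1.48 ± 0.25 (adjusted p = 0.00428), Fbxo7 by 1.30 ± 0.28 (adjusted p = 0.0108) and Klhl4 by 1.62 ± 0.37 (adjusted p = 0.0167). The opposite sign was found for Rnf217 (-2.07 ± 0.42, adjusted p = 0.00851), Usp46 (-1.87 ± 0.42), Fbxl16 (-1.73 ± 0.50) and Rnf157 (-1.65 ± 0.37). Called genes with a positive difference had been lower in Sus-T without trauma, and those with a negative one higher, and these comparisons share their libraries. The count was 8 without trend and robust options, 10 with quantile normalization (5 up and 5 down), 16 with equal library medians (12 and 4), and 0 with the oligodendrocyte covariate, where 25 had an unadjusted p under 0.05. It was 1 without Sus-T without trauma replicate 1, 8 to 9 without any one of the Res-T libraries without trauma, 10 without Sus-T with trauma replicate 2, and 11 without Res-T with trauma replicate 3 or Sus-T without trauma replicate 3.

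In the prefrontal cortex 4 comparisons gave no call among the 142 genes or among all genes (0%) in limma. At an unadjusted p under 0.05 stood 14 of the 142 genes for phenotype without trauma, and 630 of all 6080 genes. For the trauma effect these counts were 19 and 899 in Res-T, and 3 and 91 in Sus-T. For the difference of these effects they were 8 and 371. The shares were not compared by a test. Fbxo31 had the smallest p for phenotype without trauma, at 164.0, 139.8, 152.1 and 76.5 in Res-T and at 396.4 and 251.1 in Sus-T. Its groups did not overlap, as in 12% of the 142 genes and 14.9% of all genes. The log2 difference of Fbxo31 was 1.30 ± 0.35 (adjusted p = 0.236). Usp46 (0.93 ± 0.29), Rnf180 (1.25 ± 0.43) and Usp40 (-1.02 ± 0.35) followed. For trauma in Res-T the smallest p-values belonged to Rnf114 (-1.15 ± 0.32), Fbxl18 (-1.52 ± 0.42), Ube2j1 of the endoplasmic reticulum (-0.80 ± 0.25) and Rnf11 (-0.92 ± 0.32). Fbxl18 stood at 188.9, 212.5, 141.3 and 44.7 in Res-T without trauma, where replicate 4 was close to the 43.7 ± 5.41 of Res-T with trauma. Leaving out a library that lies near the trauma group widens the difference between the groups by itself, so the calls that follow depend on this choice. Without that library 588 genes (9.67%) and 13 of the 142 (9.15%) were called, 1 up and 12 down. Fbxl18 then had a log2 change of -2.01 (adjusted p = 0.00148), Trim44 one of -0.90 and Rnf11 one of -1.20, while Trim36 rose by 1.51. Libraries with and without trauma did not overlap in 8.03% of all genes within Sus-T. There the smallest p-values were those of Trim36 (-1.22 ± 0.48), Rnf167 (1.12 ± 0.53), Fbxo7 (-1.03 ± 0.49) and Ube2o (0.67 ± 0.32), all with adjusted p = 1. For the difference of the trauma effects Trim36 (-2.35 ± 0.64), Fbxo7 (-2.06 ± 0.65), Ube2j1 (1.03 ± 0.38) and Fbxl18 (1.49 ± 0.64) came first (adjusted p = 0.774 each).

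Summed over all members the families held a steady share of the signal. It was 2.08% to 2.18% of the library in amygdala Res-T without trauma, 2.02% to 2.21% in Sus-T without trauma, 1.96% to 2.2% in Res-T with trauma and 2% to 2.18% in Sus-T with trauma. In the prefrontal cortex the same shares ran from 1.80% to 2.03% over all groups. Single families moved more within this sum. Amygdala Klhl genes held 0.181% to 0.192% in Res-T without trauma and 0.158% to 0.162% in Sus-T without trauma, which did not overlap, and Ube2 genes 0.210% to 0.256% and 0.257% to 0.313%. Cullin (0.0616% to 0.0729% and 0.0743% to 0.0815%), Trim (0.291% to 0.321% and 0.277% to 0.288%) and Usp genes (0.565% to 0.582% and 0.517% to 0.553%) were apart as well. The F-box, Rnf and Ube3 shares overlapped. Of all single genes 58.9% did not overlap in that comparison. In the prefrontal cortex with trauma Klhl genes held 0.0236% to 0.0265% in Res-T and 0.0389% to 0.0421% in Sus-T, and Ube2 genes 0.217% to 0.229% and 0.256% to 0.307%. Ube3c (0.0136% to 0.0145% and 0.0161% to 0.0201%) and Usp genes (0.595% to 0.623% and 0.530% to 0.589%) were apart as well, and the other families overlapped. Of all single genes 40.7% were apart there. These sums were not tested.

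Per kilobase of exon the median value was 38.2 over the amygdala genes described here and 30.4 over all genes, and 38 and 33.1 in the prefrontal cortex. In the amygdala the family medians per kilobase ran from 23.1 for Klhl to 61.2 for Ube3, with 55.0 for Ube2, 47.2 for Trim, 46.4 for cullins, 38 for Usp and 36.8 each for F-box and Rnf. The highest single genes per kilobase were Rnf130 (411), Trim59 (309), Usp54 (245), Klhl2 (185), Ube2b (177), Fbxl16 (148), Cul3 (120) and Ube3b (77.7), and the lowest was Trim6 (3.31). In the prefrontal cortex Trim59 (208), Rnf13 (187), Usp22 (184), Ube2b (161), Fbxo11 (117), Klhl11 (73.3), Ube3c (37.9) and Cul5 (37.0) led their families. Trim59 and Ube2b thus led their families in both regions. Fbxo11, an F-box receptor for BCL6, and Cul5 did not pass the test between phenotypes with trauma (389.5 ± 47.8 and 574.2 ± 76.6, and 313.7 ± 19.2 and 302.7 ± 75.8; adjusted p = 0.0729 and 0.820).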

How the data were processed

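RNA from sorted neurons was sequenced as paired ends after removal of ribosomal RNA, per the labels' protocols. The authors used bcl2fastq 2.20 and Salmon 1.2 on GRCm38.p6, per the submitters' processing notes. The deposited tables hold a normalized signal per Ensembl gene in arbitrary units. How the authors normalized and which low genes they left out is not given in the sources used here, and read depth, and so counting error, was not estimated. Columns repeated between tables of a region held identical values. Gene names came from GENCODE M21, which matched 9871 of 9872 amygdala and 6080 of 6080 prefrontal identifiers, and 2 pattern matches per region were dropped as pseudogenes or Y-linked.

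The 4 groups of a region were fitted together with limma 3.58.1 in R 4.3.3 on log2(value + 1), with trend and robust options and 9 residual degrees of freedom, for 5 contrasts. P-values were adjusted over all genes of the region and called under 0.05. The procedure was tested on simulated data. Folds on this scale understate changes of low genes. Values per kilobase divide by the exon length of the gene. Alternatives were a pseudocount of 8, filters at a mean of 10 or 50, other scalings, plain empirical Bayes, the compared groups alone, the replicate number as a block, the oligodendrocyte marker mean as a covariate, and each library left out. Named genes were, per comparison and subfamily, up to 3 called genes in each direction with the smallest p, 4 genes of smallest p where fewer were called, the gene with the highest value per kilobase, and a preselected list. The genes called in both regions were added to them. Rnf11, Rnf180, Rnf20 and Trim36 entered the 39 genes of the amygdala without trauma only in this way. The preselected genes Rnf187 and Ube2ql1 were not analysed here. The members and lists were chosen with earlier results of these data known. The values of 1 gene on the pathway lists are not reported here.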

Additional observations from a re-analysis of the deposited data

Results flagged for a closer look

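Among 168 sets of 4 libraries of one group, 11 (6.55%) held a library far from the other 3, where chance flags about 1 set in 20. In amygdala Sus-T with trauma this was replicate 1 for Fbxo7 (655.5, the others 402.3 to 442.9), Klhl2 (1997, the others 1414 to 1484) and Rnf157 (558.1, the others 273.2 to 320.7). In amygdala Res-T with trauma it was replicate 1 for Rnf43 (187.5, the others 61.08 to 71.7). Replicate 2 of that group was low for Klhl20 (190.2, the others 338.4 to 354.1) and Trim9 (343.4, the others 812.1 to 892.7). Replicate 3 was low for Fbxw7 (111.8, the others 156.8 to 161.4) and Trim32 (135.7, the others 176 to 184) and high for Ube2m (238.5, the others 152.5 to 162.6). In prefrontal Sus-T with trauma replicate 1 was low for Trim2 (1225, the others 1771 to 1883) and replicate 4 high for Usp14 (336.4, the others 225.5 to 233.6).

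The effect of trauma in the amygdala differed between Sus-T and Res-T, by limma's test of the difference, for 18 genes. The log2 difference was 4.14 for Trim6 (-2.71 in Res-T and 1.44 in Sus-T), 2.64 for Rnf43 (-0.48 and 2.16), 1.99 for Trim59 (-0.72 and 1.27), 1.62 for Klhl4 (-0.60 and 1.02) and 1.48 for Usp54 (-0.77 and 0.70). It was 1.36 for Rnf122 (-0.92 and 0.44), 1.30 for Fbxo7 (-0.81 and 0.49), 1.09 for Usp48 (-0.70 and 0.38), 1.08 for Fbxl5 (-0.63 and 0.44), 1.06 for Trim35 (-0.26 and 0.80) and 1.01 for Rnf13 (-0.35 and 0.67). Among the negative differences it was -2.07 for Rnf217 (0.94 and -1.13), -1.87 for Usp46 (1.15 and -0.72), -1.73 for Fbxl16 (1.96 and 0.24) and -1.65 for Rnf157 (1.22 and -0.43). It was -1.50 for Trim37 (1.17 and -0.33), -1.21 for Ube2m (0.83 and -0.38) and -0.94 for Rnf169 (0.66 and -0.28). None of the 18 was called with the oligodendrocyte covariate, and 17 kept their sign.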

How the results depend on the processing

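The oligodendrocyte covariate gave 0 calls among the family genes in place of 54 (amygdala without trauma), 0 in place of 31 (prefrontal cortex with trauma), 0 in place of 18 (amygdala difference of trauma effects) and 1 in place of 0 (amygdala with trauma). For that last comparison 1 gene was also called with means of at least 10 or 50, equal medians, a pseudocount of 8, quantile normalization and the replicate block. Trauma in Sus-T amygdala gave 1 under the same settings except the block. Trauma in Res-T amygdala gave 5 without trend and robust options and 7 with quantile normalization, and the difference of trauma effects 8 and 10. Leaving out single libraries gave 35 to 44 calls for the amygdala without trauma, 0 to 1 with trauma, 1 to 14 for trauma in Res-T, 0 to 3 for trauma in Sus-T and 1 to 20 for their difference. In the prefrontal cortex it gave 14 to 24 with trauma and 0 to 13 for trauma in Res-T. Deviations from group means of same-numbered libraries correlated above 0.1 in 3 of 16 pairs per region. The 2 libraries of Sus-T without trauma deviate by equal and opposite amounts, so these correlations cannot decide whether numbers pair libraries. The main fit did not pair them. The replicate block gave 52 calls for the amygdala without trauma, 13 for trauma in Res-T, 10 for the difference and 23 for the prefrontal cortex with trauma.

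Among the named genes, signs turned with the covariate in the amygdala without trauma for Rnf43 (0.25) and the uncalled Cul3 (-1.06) and Usp22 (0.44). Called genes outside the naming rule that turned there were Trim68 (-1.87 to 2.26), Rnf121 (-1.21 to 1.53), Trim11 (-1.77 to 0.54) and Fbxl17 (1.12 to -0.1). Further turns were those of Rnf43 in the difference of trauma effects (-0.34), and of Rnf13 (0.10) and Rnf41 (-0.87) in the prefrontal cortex with trauma. Rnf41 there also turned with equal medians (-0.13), quantile normalization (-0.21), the replicate block (-0.22) and libraries left out (-0.24 to 0.21), and Usp22 with equal medians (-0.05). Fbxo7 for trauma in Sus-T prefrontal cortex ran from -2.07 to 0.01 with single libraries left out. The causes were not tested.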
